A study of Mus musculus with 12 samples.

Results

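The 6 genes described here encode proteins that detect DNA in the cytosol, pass the signal on, or remove that DNA. They are Mb21d1 (now named Cgas, which encodes cGAS), Tmem173 (now named Sting1, which encodes STING), Zbp1, Aim2, Ifi204 and Trex1, and they were chosen by gene name out of 46517 rows in each deposited table. 7 rows carry one of these names, because Trex1 stands on a pair of rows. RNA was sequenced from B16F10, a mouse melanoma line, and from 4T1, a mouse mammary carcinoma line. There were 4 groups of 3 libraries, 12 in all. They were B16F10 cells given 0.1 µM of DAC for 48 h, B16F10 control cells, 4T1 cells given 1 µM of DAC for 48 h, and 4T1 control cells. DAC is decitabine, a cytidine analogue that is built into DNA and traps DNA methyltransferases, so that methylation is lost as cells divide. Both lines are long-established tumour lines grown alone in plates, and dead cells were removed with beads before RNA was taken. Nothing in the labels says that the 3 libraries of a group came from separate cultures, and the p-values cover only how far these libraries spread, which may be technical. Dose differed together with the line, so that an effect of the dose and an effect of the line cannot be told apart.

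cGAS is an enzyme that binds double-stranded DNA in the cytosol and makes the cyclic dinucleotide cGAMP. cGAMP binds STING in the membrane of the endoplasmic reticulum, and STING then recruits the kinase TBK1, which phosphorylates IRF3 and so turns on interferon beta. TREX1 is an exonuclease that degrades DNA in the cytosol. AIM2 and p204, the product of Ifi204, belong to the PYHIN family, whose HIN domains bind DNA. AIM2 assembles an inflammasome with the adaptor ASC (Pycard) and caspase-1, p204 has been described in mouse cells as a DNA sensor upstream of STING, and ZBP1 binds Z-form nucleic acids and passes the signal to RIPK3 and MLKL. Most of the PYHIN genes and Zbp1 are known as interferon-induced genes.

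In the GENCODE M21 annotation of the mm10 genome, Cgas lies at chr9:78430526-78443237 on the minus strand, Trex1 at chr9:109057933-109059734 on the minus strand, and Zbp1 at chr2:173206612-173218923 on the minus strand. Aim2 at chr1:173350879-173466040 and Ifi204 at chr1:173747293-173766943 stand in the same cluster of PYHIN genes, on the plus and the minus strand. Decitabine acts at CpG sites, so the promoter windows of 2 members are printed to show their CpG, in capitals. Each window runs from 250 bases before to 50 bases after the transcription start of RefSeq (build GRCm38.p6), 5′ to 3′ on the gene's strand. The Aim2 window is chr1:173420354-173420653 and the Cgas window is chr9:78443188-78443487.
Aim2: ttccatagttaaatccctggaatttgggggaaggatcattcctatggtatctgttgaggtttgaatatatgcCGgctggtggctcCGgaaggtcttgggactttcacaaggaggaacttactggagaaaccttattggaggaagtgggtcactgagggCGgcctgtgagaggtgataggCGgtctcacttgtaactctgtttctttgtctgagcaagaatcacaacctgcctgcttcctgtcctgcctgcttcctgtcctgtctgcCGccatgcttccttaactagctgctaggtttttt
Cgas: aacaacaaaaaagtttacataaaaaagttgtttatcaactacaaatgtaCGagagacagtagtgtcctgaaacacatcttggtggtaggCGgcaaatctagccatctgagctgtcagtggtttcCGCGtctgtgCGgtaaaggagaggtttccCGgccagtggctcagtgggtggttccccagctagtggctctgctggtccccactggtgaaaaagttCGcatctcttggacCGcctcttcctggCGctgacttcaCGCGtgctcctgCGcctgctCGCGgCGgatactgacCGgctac
The Aim2 window held 5 CpG and the Cgas window 16. Among 32851 windows of the same length the median was 7 CpG, and 43.6% of the windows held as few as Aim2 or fewer, against 68.6% for Cgas. The Trex1 windows held 5 and 7 CpG. No window is shown for Zbp1, Ifi204 or Tmem173. The windows of Aim2, Cgas and Trex1 held no match to any of 3 motifs searched on both strands, which were the core of the interferon-stimulated response element (ISRE, GAAANNGAA), the gamma-activated site (GAS, TTCNNNGAA) and the NF-kB site (GGGANTTCC). These were found in 8.56%, 8.30% and 1.68% of all windows, and a missing match says only that these letters are not in the window.

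Library totals ran between 48197936 and 76042600 estimated counts. The melanocyte markers summed to between 9740 and 12570 counts scaled to library size (CPM) in the B16F10 libraries and to at most 10.5 CPM in the 4T1 libraries. The epithelial markers summed to between 3005 and 3948 CPM in 4T1 and to at most 5.401 CPM in B16F10. In B16F10 control libraries Krt8, Krt18, Krt7, Krt19 and Krt5 were at 0, and in 4T1 control libraries Tyrp1, Dct, Sox10, Gpr143 and Slc45a2 were. Of 14 genes of blood cells, Adgre1, Ncr1 and Tyrobp had no count in any library. The sum of the 14 was between 4.46 and 6.01 CPM in B16F10 DAC libraries and between 2.90 and 3.89 CPM in B16F10 control libraries. It was between 21.2 and 22.6 CPM in 4T1 DAC libraries and between 6.56 and 7.04 CPM in 4T1 control libraries. In 4T1, 5 of 6 tested blood genes rose and Cd14 fell, where 39.2% of all tested genes rose and 36.1% fell. In B16F10, 1 of 3 tested blood genes rose, where 21.4% of all tested genes did. Most of the 4T1 rise was Csf1r, the receptor of a macrophage growth factor, at 13.1 CPM in DAC cells and 0.998 CPM in control cells. The 10 fibroblast genes summed to between 62.1 and 68.7 CPM in 4T1 DAC libraries and between 33.7 and 36.0 CPM in 4T1 control libraries. Their sum was between 71.1 and 78.6 CPM in B16F10 DAC libraries and between 57.4 and 61.2 CPM in B16F10 control libraries. The part of these genes in the results was not tested. In such bulk libraries, fewer cells that use a gene and less of its RNA per cell cannot be told apart.

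After decitabine, 5 of the 6 DNA sensing genes rose in 4T1 cells and STING fell. In B16F10 cells STING and Zbp1 rose, while Cgas and Trex1 did not pass the test and Aim2 and Ifi204 had too few counts to enter it. The test in each line used its 6 libraries and an adjusted p under 0.05. Zbp1 in B16F10 and Aim2 in 4T1 entered it through their DAC counts, so the filter favoured a rise in them. In 4T1, 39.2% of 15523 tested genes were higher after DAC and 36.1% were lower, so that 5 of 6 is a share to be read against a background in which most genes moved. In B16F10, 21.4% of 14344 tested genes were higher and 19.8% lower, and of the 4 members tested 2 were higher and none lower. The Trex1 row not in the annotation passed the test in neither line. Fold changes are relative to the scaling of the libraries by the trimmed mean of M values (TMM). With library size alone the fold changes of all genes in 4T1 shifted by a median of -0.299 on the log2 scale, and 34% of the called genes were higher in place of 52.1%. The 6 genes in 4T1 and the 4 tested in B16F10 kept their calls under that scaling.

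**Figure D1:**
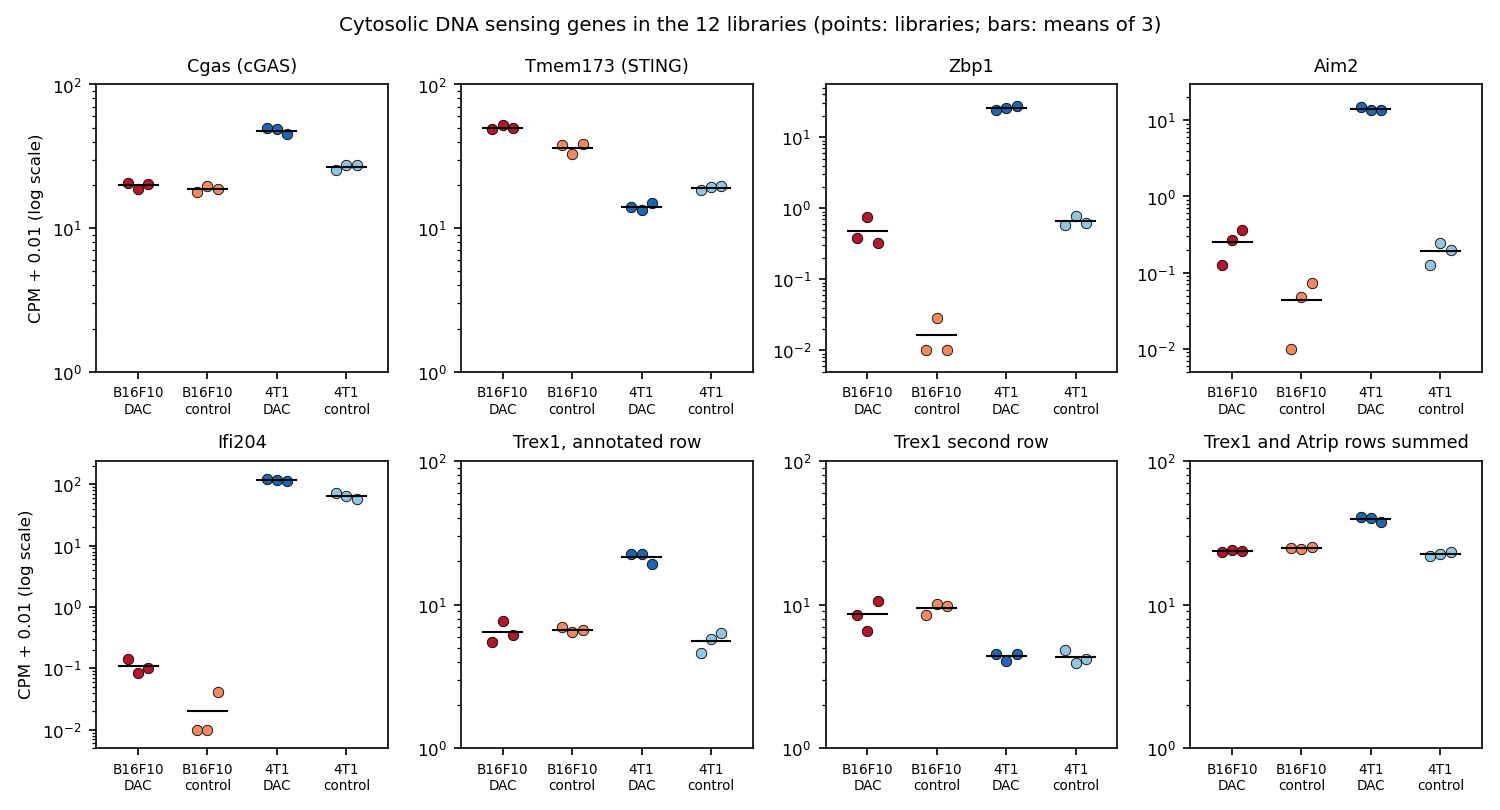
Levels of the DNA sensing genes in CPM on a log scale, with 0.01 added, in B16F10 DAC, B16F10 control, 4T1 DAC and 4T1 control libraries. Points are libraries and bars are means of 3. STING stands higher after DAC in B16F10 and lower after DAC in 4T1, and Zbp1 and Aim2 in 4T1 control libraries stand at about the level of B16F10 DAC libraries.

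cGAS rose in 4T1 cells. Its level was 49.4, 48.7 and 44.9 CPM in the 4T1 DAC libraries, against 25.35, 27.4 and 27.3 CPM in the 4T1 control libraries. The groups did not overlap, and the gene was 1.85-fold higher after DAC (log2 fold change 0.89, SE 0.06, adjusted p = 1.61e-07 in edgeR's quasi-likelihood test). In B16F10 its level was 20.7, 18.7 and 20.15 CPM after DAC and 17.96, 19.6 and 18.8 CPM in control cells. These groups overlapped, and the log2 fold change was 0.08 with an SE of 0.08 (adjusted p = 0.414). The order of the 4 groups was therefore 4T1 DAC, 4T1 control, and then both B16F10 groups, which did not differ beyond their spread.

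STING, whose gene Tmem173 lies on chromosome 18 at chr18:35733679-35740554 on the minus strand, moved in opposite directions in the lines. In B16F10 it had 48.7, 52.1 and 49.7 CPM after DAC, against 37.7, 32.7 and 38.6 CPM in control cells. The groups were apart by a fold of 1.38 (log2 fold change 0.47, SE 0.07, adjusted p = 1.9e-05). In 4T1 it had 14.1, 13.3 and 14.9 CPM after DAC and 18.4, 19.2 and 19.7 CPM in control cells. These groups did not overlap either, and the log2 fold change was -0.39 (SE 0.07, adjusted p = 0.000278), a level of 0.765 of the control. The order of the groups was B16F10 DAC, B16F10 control, 4T1 control and 4T1 DAC, and no neighbouring groups in this order overlapped. Per length of merged exons, STING was the highest of the 6 genes in B16F10 control cells, with Trex1 taken on its annotated row alone. STING stood at 13.3 CPM per kb, against 5.84 for that Trex1 row and 4.56 for Cgas. With its rows summed, Trex1 had 16.2 CPM in these cells, against 6.70 CPM on the annotated row. The other row has no exon length here, so the rank of Trex1 is uncertain. In 4T1 control cells Ifi204 stood first at 17.95 CPM per kb, with STING at 6.96, Cgas at 6.47 and the annotated Trex1 row at 4.86.

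Zbp1 was nearly silent in control cells and rose in both lines. B16F10 libraries held 23, 43 and 17 counts after DAC and 0, 1 and 0 counts in control cells. Over the group that is 83 counts against 1, 84.2 times as many, within 14.7 to 3366 by a 95% counting interval (adjusted p = 3.7e-05 in edgeR). In 4T1 the level was 24.55, 25.7 and 27.6 CPM after DAC, against 0.568, 0.758 and 0.610 CPM in control cells. The groups did not overlap, and the gene was 41.4-fold higher (log2 fold change 5.37, SE 0.11, adjusted p = 1.555e-11). The B16F10 DAC mean of 0.475 ± 0.229 CPM (SD, n = 3) was near the 4T1 control mean of 0.6455 ± 0.0999 CPM (SD, n = 3), and these groups overlapped.

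The partners of ZBP1 include its kinase RIPK3 and the pore-forming pseudokinase MLKL. Ripk3 had no count in either group of control libraries. It had 64 counts over the B16F10 DAC libraries, at least 21.65-fold higher against a floor of 3 counts over the group, too few to be tested. It had 1081 counts over the 4T1 DAC libraries, at least 358-fold higher (adjusted p = 5.55e-09). Mlkl was higher in both lines, with 50.1 ± 0.894 CPM after DAC and 40.6 ± 1.14 CPM in control cells in B16F10, and 86.2 ± 2.72 CPM after DAC and 65.35 ± 1.48 CPM in control cells in 4T1 (SD, n = 3 each). Adar, whose product edits double-stranded RNA and has a Z-binding domain like that of ZBP1, was also higher in both, with log2 fold changes of 0.44 in B16F10 and 1.198 in 4T1. Fadd, an adaptor of cell death, fell in B16F10 (log2 fold change -0.55) and rose in 4T1 (0.18, but -0.11 with library size alone). Casp6 rose in B16F10 (0.27) and fell in 4T1 (-1.09). Of the 8 genes of the list, 5 of 7 tested rose and 1 fell in B16F10, and 5 of 8 rose and 1 fell in 4T1. Over all tested genes of each line, 21.4% and 39.2% rose, and 19.8% and 36.1% fell. The median log2 fold changes of 0.27 and 0.21 stand beside 0.003 and 0.03 over all tested genes of each line.

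Aim2 rose 78.5-fold in 4T1 cells. It had 14.7, 13.75 and 13.5 CPM in the 4T1 DAC libraries, against 0.1175, 0.233 and 0.191 CPM in the 4T1 control libraries. In counts that is 2224 over the treated libraries and 28.9 over the control libraries (log2 fold change 6.295, SE 0.16, adjusted p = 9.09e-11). B16F10 libraries held 7, 15 and 19 counts after DAC and 0, 2 and 4 counts in control cells, with no overlap. The ratio over the groups was 6.93 with a 95% counting interval of 2.93 to 19.99. The gene missed the count filter in that line. Without the filter it was called higher (log2 fold change 2.755, SE 0.97, adjusted p = 0.0191), and so it was in one fit of all 12 libraries (2.72, SE 0.58, adjusted p = 0.00102). It entered that fit through its 4T1 counts, and the 4T1 libraries help to set its SE there. Aim2 in B16F10 DAC cells, at 0.240 ± 0.118 CPM, overlapped with 4T1 control cells at 0.181 ± 0.0586 CPM (SD, n = 3 each).

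Of the other parts of the inflammasome, Ninj1, which ruptures the membrane of dying cells, had the smallest adjusted p in 4T1. It rose there to 37.1 ± 1.08 CPM after DAC, against 21.7 ± 1.52 CPM in control cells (SD, n = 3 each, adjusted p = 4.19e-07), and in B16F10 its log2 fold change was -0.18 (adjusted p = 0.0702, called lower at 0.0351 with library size alone). Pycard, the adaptor that joins AIM2 to caspase-1, had 36 counts over the B16F10 DAC libraries and 5 over the control libraries. It rose in 4T1 to 75 counts after DAC, against 20 in control cells (log2 fold change 1.90, SE 0.48, adjusted p = 0.00399). Casp1 had 49 counts in B16F10 DAC libraries and none in B16F10 control libraries, at least 16.6-fold higher (adjusted p = 0.00023). In 4T1 it had 267 counts after DAC and 293 in control cells (adjusted p = 0.614), and it was called lower when library size alone was used (log2 fold change -0.39, adjusted p = 0.0382). Casp4, which senses bacterial lipopolysaccharide, rose in B16F10, with 97 counts after DAC and 5 in control cells. It rose in 4T1 as well, by 1.29 on the log2 scale. Il1b and Nlrp3 rose in 4T1, by 2.85 and 2.505 on the log2 scale, to 1.675 ± 0.0738 and 0.870 ± 0.0879 CPM after DAC, against 0.238 ± 0.0492 and 0.159 ± 0.0757 CPM in control cells (SD, n = 3 each). Il18, the other cytokine that caspase-1 cuts, fell in 4T1 (log2 fold change -1.37). Of 8 genes, 2 of 4 tested rose and none fell in B16F10, and 5 of 8 rose and 1 fell in 4T1. Over all tested genes 21.4% rose and 19.8% fell in B16F10, and 39.2% rose and 36.1% fell in 4T1. The median was 2.61 in B16F10, or 2.53 with Casp1 at its bound, against 0.003 over all genes, and 1.06 in 4T1, against 0.03.

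**Figure D2:**
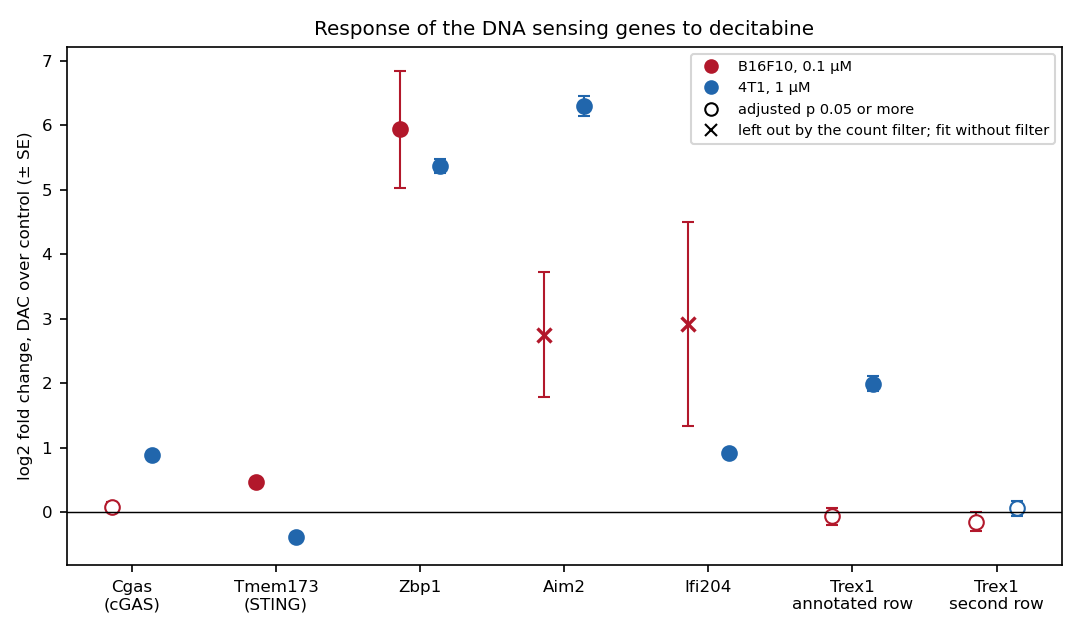
Log2 fold change of each gene, DAC over control, with its SE, in B16F10 (red) and 4T1 (blue). Open circles did not pass the test, and crosses are genes left out by the count filter, fitted without it. STING lies above 0 in B16F10 and below 0 in 4T1, and Zbp1 lies above 5 in both lines.

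Ifi204 was the most abundant of the 6 genes in 4T1 cells and nearly absent from B16F10 cells. It had 119, 118 and 113 CPM in the 4T1 DAC libraries, against 70.7, 63.5 and 57.5 CPM in the 4T1 control libraries. The groups did not overlap, and the gene was 1.89-fold higher (log2 fold change 0.92, SE 0.07, adjusted p = 1.68e-06). B16F10 libraries held 8, 4.31 and 5 estimated counts after DAC and 0, 0 and 2 in control cells. The ratio was 8.78 with a 95% counting interval of 2.05 to 77.0, and the gene was left out by the count filter. Without the filter its log2 fold change was 2.92 with an SE of 1.58 (adjusted p = 0.172), and in one fit of all 12 libraries it was 2.88 with an SE of 0.78 (adjusted p = 0.00684). Ifi204 entered that fit through its 4T1 counts, and the 4T1 libraries help to set its SE there. Of the 31-base words of its transcripts, 34.0% occur in other genes, most of them in Ifi211 (18.9%), so reads can be shared out between these relatives and its count is uncertain to that extent.

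All 12 PYHIN genes that could be tested in 4T1 rose, where 39.2% of all genes did, and their median log2 fold change was 2.55, against 0.03 over all tested genes. Aim2, Ifi205, Ifi208, Ifi213 and Ifi214 had too few control counts to pass the count filter on those alone. They entered the test through their DAC counts, so the filter favoured a rise in them. Both the count of genes that rose and the median include them. Summed over the family of 13, the level was 442.5 ± 15.4 CPM in 4T1 DAC cells and 218 ± 23.6 CPM in 4T1 control cells (SD, n = 3 each). Ifi204 made up 26.3% ± 0.152 of that sum after DAC and 29.3% ± 0.700 in control cells. Ifi203, Ifi204, Ifi202b, Ifi211 and Mndal, at 15.7 to 74.4 CPM in control cells, rose by 0.90 to 1.14 on the log2 scale. Ifi205, Ifi207, Ifi209 and Ifi214, at 0.0827 to 1.06 CPM, rose by 2.27 to 3.17. Aim2, Ifi213 and Ifi208, at 0.181, 0.0320 and 0.0191 CPM, rose by 6.295, 6.19 and 8.16. Ifi208 had 925 counts over the DAC libraries and 3 over the control libraries, 307 times as many, within 105 to 1490 by the same interval. Ifi206, which was not tested, had 9.23 estimated counts over the DAC libraries and none in the control libraries, at least 3.06-fold higher. Many of these genes are near copies of each other. The share of 31-base words found in other genes reached 78.9% in Ifi211 and 47.2% in Ifi209, and the counts of single genes are uncertain to that extent.

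In B16F10 the whole family summed to 1.24 ± 0.155 CPM after DAC and 0.688 ± 0.0668 CPM in control cells (SD, n = 3 each). Ifi202b, Ifi205, Ifi209 and Ifi214 had no count in any of the 6 B16F10 libraries. Only Ifi203 and Mndal had enough counts to be tested there, and neither passed, with log2 fold changes of -0.11 (SE 0.48, adjusted p = 0.875) and 1.08 (SE 0.54, adjusted p = 0.119). Mndal was called higher in one fit of all 12 libraries (log2 fold change 1.065, adjusted p = 0.0143), where 4 genes of the family were called higher. All of them but Mndal, Aim2 and Ifi204 included, entered that fit through their 4T1 counts. The share of all genes called higher in that fit is not given here, so this count has no background beside it.

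**Figure D3:**
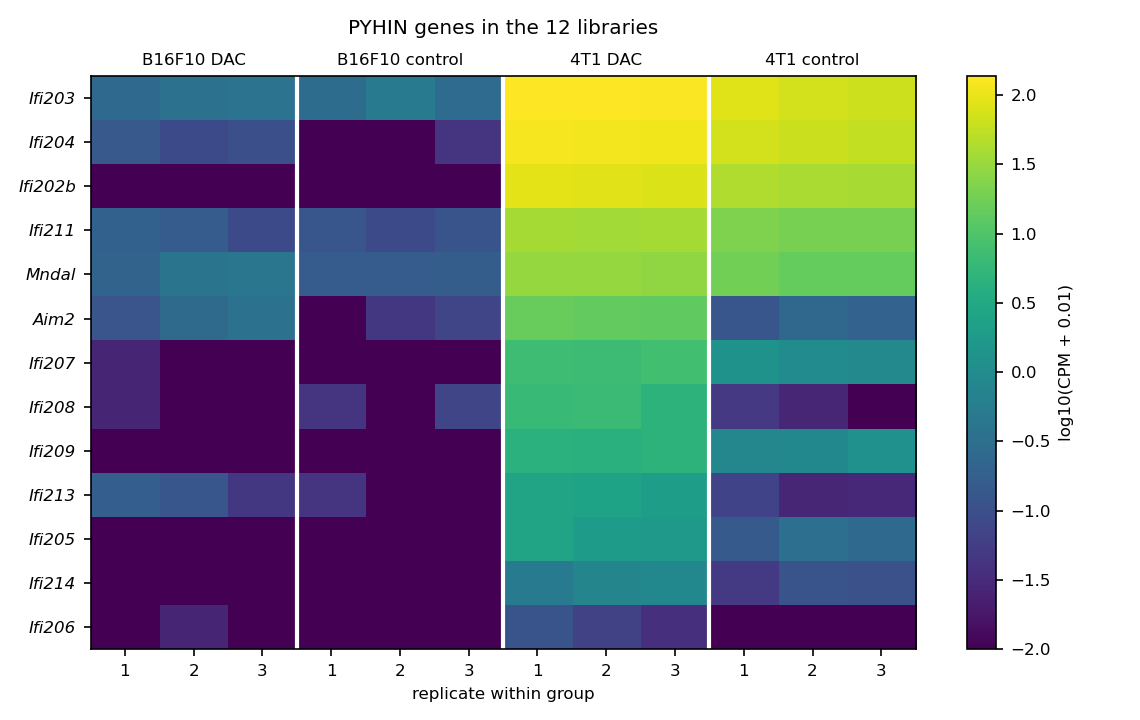
Levels of the 13 PYHIN genes as log10(CPM + 0.01) in each of the 12 libraries, with genes in the order of their 4T1 DAC level. The 4T1 DAC columns are brighter than the 4T1 control columns in each tested gene, and the B16F10 columns stay below 1 CPM in all genes.

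Of the 12 PYHIN genes with a RefSeq window, 9 held an ISRE core, as did 10 of their 14 windows, against 8.56% of all windows. These genes arose by duplication, so their windows are not independent of one another. In 8 of the 9 genes a match on the gene's strand lay at positions -79 to -35 from the start. These sites are printed as 30 bases each, 5′ to 3′, with the 9 bases of the match in capitals, to show how alike they are.
Ifi203: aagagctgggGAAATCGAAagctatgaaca
Ifi206: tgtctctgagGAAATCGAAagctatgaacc
Ifi207: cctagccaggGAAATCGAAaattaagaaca
Ifi208: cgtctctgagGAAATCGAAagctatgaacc
Ifi211: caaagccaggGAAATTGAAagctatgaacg
Ifi213: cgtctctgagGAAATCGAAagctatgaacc
Ifi214: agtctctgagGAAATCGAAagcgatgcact
Mndal: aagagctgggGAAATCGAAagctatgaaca
They lie on chromosome 1 (build GRCm38.p6), at chr1:173942508-173942537 for Ifi203, chr1:173491339-173491368 for Ifi206, chr1:173741831-173741860 for Ifi207, chr1:173673597-173673626 for Ifi208, chr1:173913064-173913093 for Ifi211, chr1:173599326-173599355 for Ifi213, chr1:173536017-173536046 for Ifi214 and chr1:173880204-173880233 for Mndal. The match read GAAATCGAA in 7 of these 8 genes, and so held a CpG. That exact run, chosen after the sites had been seen, occurred in 30 of the 32851 windows (0.0913%). Ifi205 held its matches at -134 and 25, on opposite strands. Ifi202b held a GAS at -148, read on both strands because the pattern is its own reverse complement, and no ISRE core. Ifi209 held no match to any of the 3 motifs. No ISRE match overlapped a match to another motif in these windows.

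**Figure D4:**
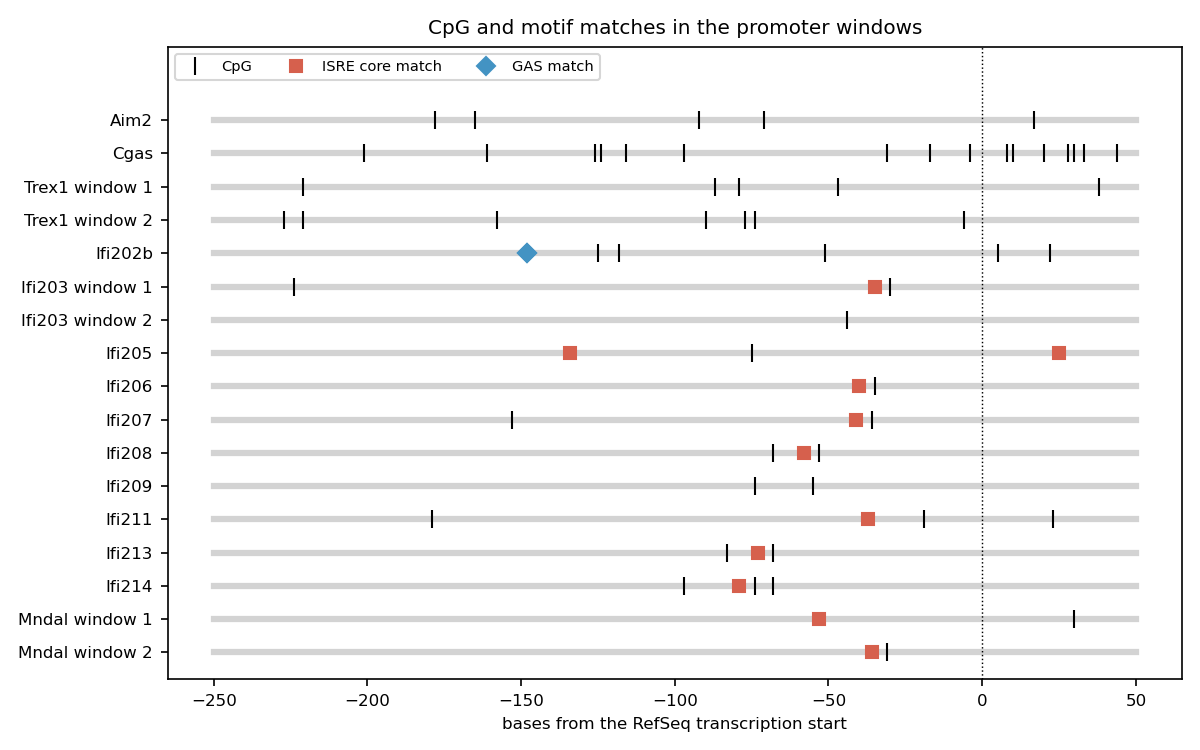
Positions of CpG (ticks), ISRE core matches (squares) and GAS matches (diamonds) in the promoter windows of Aim2, Cgas, Trex1 and the other PYHIN genes, in bases from the RefSeq start. In 8 PYHIN genes a square lies between -79 and -35, and the Cgas window holds 16 ticks.

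Trex1 rose in 4T1 on the row that the annotation names. That row had 22.5, 22.7 and 19.04 CPM in the 4T1 DAC libraries, against 4.59, 5.78 and 6.355 CPM in the 4T1 control libraries. It was 3.97-fold higher (log2 fold change 1.99, SE 0.12, adjusted p = 1.355e-07). In B16F10 it had 5.496, 7.64 and 6.12 CPM after DAC and 6.955, 6.46 and 6.70 CPM in control cells, and the groups overlapped (log2 fold change -0.06, SE 0.13, adjusted p = 0.764). The second row named Trex1 is not in the annotation used here. It averaged 4.37 ± 0.277 CPM in 4T1 DAC cells and 4.32 ± 0.464 CPM in 4T1 control cells, and 8.54 ± 1.99 CPM in B16F10 DAC cells and 9.49 ± 0.867 CPM in B16F10 control cells (SD, n = 3 each).

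Of the 31-base words of the Trex1 transcripts, 97.6% also occur in its neighbour Atrip, which encodes a partner of the checkpoint kinase ATR. The labels do not say how reads were divided between these rows, so its own count is uncertain. The annotated Trex1 row took 54.3% ± 3.06 of the counts of the 3 rows in 4T1 DAC libraries and 24.7% ± 3.37 in 4T1 control libraries. It took 27.2% ± 4.17 in B16F10 DAC libraries and 27.0% ± 0.708 in B16F10 control libraries (SD, n = 3 each). The Atrip row itself stood at 13.6 ± 0.441 CPM in 4T1 DAC cells and 12.6 ± 0.148 CPM in 4T1 control cells. With the pair of Trex1 rows summed, the log2 fold change in 4T1 was 1.43 (SE 0.08, adjusted p = 3.6e-08), and with the Atrip row added it was 0.86 (SE 0.06, adjusted p = 1.71e-07), the same direction with a smaller size. These sums were chosen after seeing the data. Neither sum passed the test in B16F10, with log2 fold changes of -0.11 and -0.07.

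Of 19 nucleases and related genes, Trex1 among them, 3 of 16 tested rose and 5 fell in B16F10, and 7 of 16 rose and 3 fell in 4T1, with medians of -0.02 and 0.17. These shares of genes that rose are near the 21.4% and 39.2% of all tested genes. Over all tested genes 19.8% fell in B16F10 and 36.1% in 4T1. Samhd1, which cuts deoxynucleotides, rose in B16F10 to 38.3 ± 0.935 CPM, against 32.4 ± 1.42 CPM in control cells (SD, n = 3 each, adjusted p = 0.0034). In 4T1 it had 103 ± 2.10 CPM after DAC and 105 ± 3.44 CPM in control cells (adjusted p = 0.55, and lower after DAC when only library size is used for scaling). Subunits of RNase H2, which removes ribonucleotides from DNA, were among the genes that fell, with Rnaseh2a at -0.49 and Rnaseh2c at -0.42 on the log2 scale in B16F10 and Rnaseh2c at -0.60 in 4T1. Dnase2a, the lysosomal DNase, fell in B16F10 (-0.31). In 4T1 Dnase1l3, a secreted DNase, rose by 4.36, at 187 counts after DAC against 9 in control cells, while Dnase1 and Dnase1l1 fell (-1.34 and -0.75).

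Irf7, an interferon-induced relative of Irf3, rose in both lines among the genes that act after STING. Of 15 genes, 2 of 14 tested rose and 2 fell in B16F10, and 7 of 15 rose and 3 fell in 4T1, with medians of 0.05 and 0.13, where 21.4% and 39.2% of all tested genes rose and 19.8% and 36.1% fell. Irf7 had 0.899 ± 0.2695 CPM in B16F10 DAC cells and 0.138 ± 0.0392 CPM in B16F10 control cells (adjusted p = 0.000132). It had 64.7 ± 1.02 CPM in 4T1 DAC cells and 1.35 ± 0.294 CPM in 4T1 control cells (SD, n = 3 each, adjusted p = 5.4e-12). Tbk1 did not pass the test in either line, at 56.05 ± 4.33 CPM after DAC and 51.1 ± 0.449 CPM in control cells in B16F10, and 70.9 ± 5.42 CPM after DAC and 68.9 ± 0.465 CPM in control cells in 4T1 (SD, n = 3 each). In 4T1 it was called lower when library size alone was used. Irf3 did not pass either, with log2 fold changes of -0.06 in B16F10 and 0.13 in 4T1. Tbkbp1, an adaptor of TBK1, rose in both (0.42 and 0.84), and Chuk and Irf5 rose in 4T1 (1.06 and 2.22). Nfkb1 fell slightly in both lines (-0.20 and -0.17), Traf6 fell in B16F10 (-0.16, adjusted p = 0.0521 in DESeq2) and rose in 4T1 (0.23, but -0.07 with library size alone), and Ikbkb and Traf3 fell in 4T1 (-0.46 and -0.35).

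Regulators of STING and cGAS moved both ways. Of 25 STING regulators, 9 of 24 tested rose and 6 fell in B16F10, and 11 of 25 rose and 10 fell in 4T1. The medians were 0.0005 and 0.14. Over all tested genes of each line, 21.4% and 39.2% rose, and 19.8% and 36.1% fell. Among the genes named by the rule, the change was largest in Usp18, an interferon-induced protease that removes ISG15 and also recruits a deubiquitinase to STING, with 2.98 ± 0.965 CPM in B16F10 DAC cells and 0.3205 ± 0.0666 CPM in B16F10 control cells. It had 84.2 ± 1.73 CPM in 4T1 DAC cells and 0.880 ± 0.212 CPM in 4T1 control cells (SD, n = 3 each). Rhbdf2, the iRhom2 protein that carries STING out of the endoplasmic reticulum, rose 1.12 on the log2 scale in B16F10, as did Surf4 by 0.42. Atg9a, Usp21 and C9orf72 fell there by 0.33 each. In 4T1 C9orf72 rose (0.72), and the ubiquitin ligases Rnf26 and Rnf5 fell (-0.76 and -0.9987), as did Ap1s1 (-0.44). Of 20 genes that act on cGAS, 3 of 16 tested rose and 10 fell in B16F10. In 4T1, 2 of 18 rose and 12 fell. The medians were -0.23 and -0.26, where 21.4% and 39.2% of all tested genes rose and 19.8% and 36.1% fell. Hmgb2, a chromatin protein that bends DNA and helps cGAS to bind it, fell in both lines, by 0.86 in B16F10 and by 0.68 in 4T1. Banf1, which coats DNA and keeps cGAS off it, fell in both lines (-0.47 and -0.20), and so did Senp7 (-0.39 and -0.52, adjusted p = 0.0553 in 4T1 without the count filter). Usp14 and Ythdf1 rose in B16F10 (0.37 and 0.23) and fell in 4T1 (-0.26 and -0.36). Pqbp1 rose in B16F10 (0.20), a call lost with library size alone (adjusted p = 0.0535). Trim14 and Lsm14a rose in 4T1 (0.89 and 0.29), where the rise of Lsm14a was lost with library size alone, and Hmgb1 and Ttll4 fell (-0.80 and -0.77).

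Of 15 genes that carry or break down cGAMP, 4 of 11 tested rose and 5 fell in B16F10. In 4T1, 4 of 12 rose and 6 fell. The medians were -0.0016 and -0.21. Over all tested genes of each line, 21.4% and 39.2% rose, and 19.8% and 36.1% fell. Enpp1, the hydrolase of extracellular cGAMP, rose in 4T1 to 20.4 ± 0.704 CPM after DAC, against 9.47 ± 0.845 CPM in control cells (SD, n = 3 each, adjusted p = 1.56e-07). B16F10 had 37 counts of it over the DAC libraries and 3.85 over the control libraries, too few to test. Enpp3 rose in B16F10, with 90 counts after DAC and 7 in control cells. Gja1 (connexin 43), whose channels pass cGAMP between cells, went opposite ways, with log2 fold changes of 1.05 in B16F10 and -1.07 in 4T1. Gjb2 (connexin 26) fell in B16F10 (-0.68). Lrrc8d, a subunit of volume-regulated anion channels, rose by 0.35 in B16F10 and by 2.40 in 4T1, where Lrrc8c fell (-0.76). Slc19a1, a cGAMP importer known from human cells, fell in both lines (-0.47 and -0.46), and Slc46a3 fell in B16F10 and rose in 4T1 (-0.43 and 1.201), the fall being lost without the count filter (adjusted p = 0.0575). Of 19 other proposed DNA sensors, 2 of 18 tested rose and 5 fell in B16F10, and 5 of 18 rose and 10 fell in 4T1, with medians of -0.08 and -0.18, beside the same shares of all tested genes. Hnrnpa2b1, a nuclear RNA-binding protein, fell in both (-0.25 and -0.65). Lrrfip1 rose in B16F10 and fell in 4T1 (0.23 and -0.46), and Ddx41 rose in B16F10 (0.21) and fell in 4T1 (-0.12, adjusted p = 0.0799 in DESeq2). Rad50 fell in both lines (-0.24 and -0.25). Lsm14a fell in B16F10 (-0.27) and rose in 4T1 (0.29, a rise lost with library size alone). Xrcc6 fell in 4T1 (-0.59), and Safb and Safb2 rose there (0.68 and 0.48).

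Most of the interferon and NF-kB targets tested rose in both lines. Of 18 targets, 11 of 12 tested rose in B16F10 and none fell, where 21.4% of all tested genes rose and 19.8% fell. The median log2 fold change in that line was 2.63, against 0.003 over all tested genes. Ifit2 was the target that did not pass there (-0.12, adjusted p = 0.143), and Tnf, Il6, Ifnb1, Ifna4, Cxcl9 and Oas1a had too few counts to be tested. In 4T1 17 of 17 tested rose, where 39.2% of all tested genes did, with a median of 4.89, against 0.03. Ifnb1, which had few control counts, entered that test through its DAC counts, so the filter favoured a rise in it. Ifit1 had 95.8 ± 6.04 CPM in B16F10 DAC cells and 9.56 ± 0.151 CPM in B16F10 control cells, and Rsad2 and Ifit3 rose by 2.61 and 2.66 on the log2 scale. In 4T1 Irf9 and Oas1a rose, with log2 fold changes of 3.74 and 4.44. Ifnb1, which encodes interferon beta, had no count in any B16F10 library, where 3 counts would be between 0.0466 and 0.0726 CPM over the 12 libraries. It had 1484 counts over the 4T1 DAC libraries and 3 over the 4T1 control libraries, 492 times as many, within 168 to 2388 by the 95% counting interval (adjusted p = 5.22e-11).

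**Figure D5:**
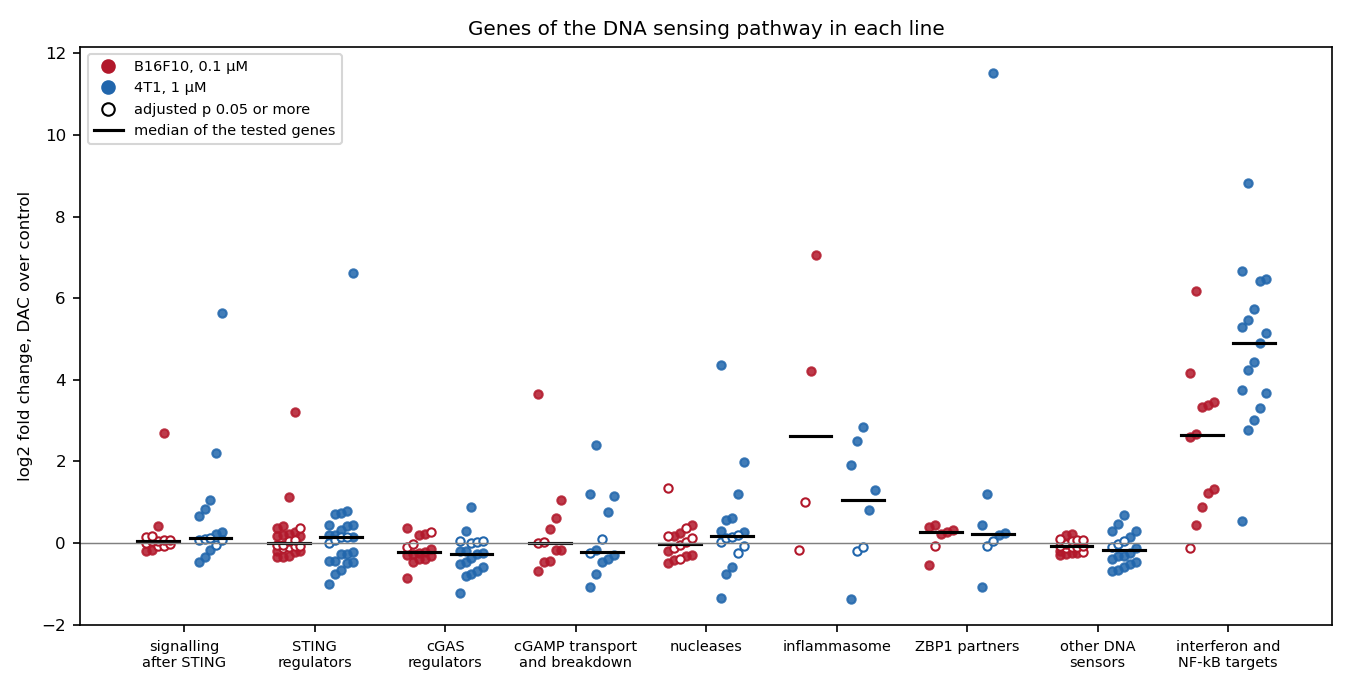
Log2 fold changes, DAC over control, of the tested genes of each list in B16F10 (red) and 4T1 (blue). Open circles did not pass the test and bars are medians. The medians of the target list are 2.63 and 4.89, and those of the signalling genes and of the regulators of STING and cGAS lie between -0.26 and 0.14.

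The difference between the responses was tested in one fit of all 12 libraries, as the B16F10 log2 fold change minus that of 4T1. Over 17127 genes, 28.9% had a higher and 20.9% a lower value in B16F10. STING was among the higher genes (0.90, SE 0.10, adjusted p = 7.6e-07). Cgas (-0.76, SE 0.09, adjusted p = 2.615e-06) and Trex1 (-2.00, SE 0.18, adjusted p = 6.76e-08) were among the lower ones. For Trex1 the difference was -1.49 with its rows summed and -0.88 with Atrip added. Aim2 was lower too (-3.52, SE 0.97, adjusted p = 0.0055), but without B16F10 control replicate 3, which holds 4 of the 6 control counts of that line, it was -2.67 (adjusted p = 0.167). Ifi204 was higher in B16F10 by 2.02 (SE 0.81, adjusted p = 0.0466) on 17.3 counts against 2, and this call was lost in 8 of the 12 fits that left out a library, where the difference lay between 1.503 and 2.051. Zbp1 did not pass (0.60, SE 0.78, adjusted p = 0.571), and its single count in the B16F10 control libraries stands behind that error. Of the 12 PYHIN genes tested, Ifi204 was higher and Aim2, Ifi203 (-0.95, adjusted p = 0.0365) and Ifi208 were lower in this comparison. Aim2, Ifi204 and Ifi208 missed the count filter in B16F10 and entered this fit through their 4T1 counts. With library size alone the median shift over all genes was 0.225, and 73.6% of the called genes were higher in place of 58%.

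The lines differed before treatment as well. Between control cells, 37.9% of genes were higher and 40.0% lower in B16F10 than in 4T1. STING was 1.91-fold higher in B16F10 control cells than in 4T1 control cells (log2 fold change 0.93, SE 0.07), and Cgas was lower (-0.51, SE 0.07). Zbp1 was lower, at 1 count against 103 (adjusted p = 2.31e-08), and so were Aim2, at 6 counts against 28.9 (adjusted p = 0.00207), and Ifi204, at 2 counts against 10140, which is 0.000177 of the 4T1 level (95% counting interval 2.15e-05 to 0.000641). Trex1 did not pass on its annotated row (0.27, SE 0.13, adjusted p = 0.0752), but did with the rows summed (0.71, adjusted p = 4.92e-07), with Atrip added (0.14, adjusted p = 0.037) or with library size alone (0.35, adjusted p = 0.018). Between treated cells, 40.1% of genes were higher and 43.6% lower in B16F10 than in 4T1, and with library size alone 57.9% of the called genes were higher in place of 47.9%. There STING was 3.56-fold higher (log2 fold change 1.83) and the other 5 genes were lower, with log2 fold changes of -1.26 for Cgas, -1.74 for Trex1, -5.76 for Zbp1, -5.87 for Aim2 and -10.19 for Ifi204. Of the 12 PYHIN genes tested, 10 were lower in B16F10 control cells than in 4T1 control cells, and 12 were lower in B16F10 DAC cells than in 4T1 DAC cells. Of these genes only Ifi203 and Mndal passed the count filter in B16F10 alone. The others, Aim2 and Ifi204 included, entered the fit through their 4T1 counts, so the filter favoured a lower value in B16F10. Ifi202b, with no count in B16F10, was at least 2431-fold lower between controls and at least 5075-fold lower between treated cells. These comparisons share libraries with those of the lines above.

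Genes whose levels ran most like those of the members were sought over the 12 libraries, by Pearson's r of log2(CPM + 0.5). The libraries come from only 2 lines, which sets much of each r, and the values are descriptions. The closest to Zbp1 were Pnpla7 (r = 0.997), Irf7 (0.997) and Pet2 (0.996). Those closest to Aim2 were Spats2l (0.997), Hc (0.997) and Tpm2 (0.9965), and Tpm2 had 24.7 CPM in 4T1 DAC cells, against 0.360 CPM in 4T1 control cells. For Ifi204 they were Plek2, Dusp14 and Serpinb5, at 0.9998, 0.9996 and 0.9996, genes that averaged at most 0.0534 CPM in either B16F10 group. For Cgas they were Ggct (0.996), Surf6 (0.995) and Cdh3, and for STING Man2b1 (0.9975), Nedd4l (0.995) and Atp11a (0.994). For the annotated Trex1 row they were Mpv17l (0.9875), Zfp37 (0.984) and Csnka2ip (0.982). For the second row they were Gna12 and Atg4d (0.980 each) and Hdac10 (0.974).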

How the data were processed

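RNA-seq libraries of B16F10 and 4T1 cells were deposited as one table per line of estimated counts, which the authors made with RSEM against mm10, per the submitters' processing notes, which also name edgeR. The sources used here give neither versions nor the aligner. The labels name a DNA kit for extraction and a NEXTflex RNA library kit. Between 9.54% and 15.5% of entries were not whole numbers, and the counts were rounded. Totals ran between 48197936 and 76042600 per library, and intervals and floors of 3 counts cover counting error only. Of 46517 rows, 46005 matched GENCODE M21, which gave positions and merged exon lengths.

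Genes passing filterByExpr were tested with edgeR 4.0.16 (glmQLFit with robust estimation, glmQLFTest, TMM, Benjamini-Hochberg adjustment, threshold 0.05) in R 4.3.3. A gene with few counts in a group can pass this filter through its counts in another. A call with that other group higher is then favoured. Each line's 6 libraries were fitted alone for DAC against control, and all 12 together for differences between lines. CPM are scaled by TMM over the 12 libraries. The test was tested on simulated data. Alternatives were DESeq2 1.42.0, limma-voom (limma 3.58.1), library size only, no filter, a replicate block, unrounded counts, each library left out, one fit of all libraries, and sums of the Trex1 rows. Promoter windows came from RefSeq.

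The members and lists were chosen with earlier results of these data known. Named were the members, the PYHIN genes with a count, up to 3 higher and 3 lower genes of each other list per line by adjusted p, the genes Tbk1, Irf3, Irf7, Enpp1, Samhd1, Pycard, Casp1, Ripk3, Mlkl and Ifnb1, and the 3 genes most like each member. Others, such as Csf1r, Cd14 and Atrip, were named after their values were seen. A few genes named by this rule are left out of the text.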

Additional observations from a re-analysis of the deposited data

Results flagged for a closer look

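The response to DAC differed between the lines by the test of the difference itself in 5 of the 6 genes, where 28.9% of 17127 genes were higher and 20.9% lower, with each value given as the B16F10 log2 fold change minus that of 4T1 in edgeR's quasi-likelihood test over all 12 libraries. The difference was -0.7576 for Cgas (adjusted p = 2.615e-06), 0.9012 for Tmem173 (adjusted p = 7.603e-07) and -2.003 for Trex1 (adjusted p = 6.756e-08). It was -3.524 for Aim2 (adjusted p = 0.005498) and 2.016 for Ifi204 (adjusted p = 0.04657). Both rest on few counts in B16F10, missed the count filter in that line and entered this fit through their 4T1 counts. Cgas, Tmem173 and Trex1 passed the filter in both lines. The Aim2 call was lost without B16F10 control replicate 3, and the Ifi204 call in DESeq2, in limma-voom and in 8 of the 12 fits that left out a library. Dose and line cannot be told apart in any of them.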

How the results depend on the processing

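With all 12 libraries in one fit, 4 of the 6 genes were called higher in B16F10 after DAC. Aim2 and Ifi204 were called there too, and they entered that fit through their 4T1 counts. With the B16F10 libraries alone 2 genes were called higher, where 21.4% of all tested genes rose. The share of all genes called higher in the fit of 12 libraries is not given here. Their number stayed within 1.5 times that of the B16F10 libraries alone. Without the filter in that line alone, Aim2 was called (adjusted p = 0.0191) and Ifi204 was not (adjusted p = 0.172). For the difference between lines, 1 gene was called higher with DESeq2 and with limma-voom, against 2 in edgeR, as Ifi204 was 2.195 (adjusted p = 0.0779) and 1.952 (adjusted p = 0.0672). Between control cells 2 genes were called higher in B16F10 than in 4T1, against 1, as Trex1 was 0.3541 with library size only, 0.7095 with its rows summed and 0.1417 with Atrip added. In 4T1, library size only turned the sign of Tbk1 to -0.2066, Lsm14a to -0.005843, Samhd1 to -0.2709, Traf6 to -0.06698, Fadd to -0.1139, Rhbdf2 to -0.2266, Pqbp1 to -0.2409 and Rnaseh2a to -0.1762. Leaving out each library in turn, the difference ran between -4.086 and -2.667 for Aim2, whose call was lost without B16F10 control replicate 3, and between 1.503 and 4.567 for Ifi204, whose call was lost in 8 of 12 fits, with 1 to 2 genes then called higher. The calls of Ifi204 were lost without B16F10 control replicate 1 (1.503) or 2 (1.57), B16F10 DAC replicate 1 (1.73) or 3 (2.051), 4T1 control replicate 2 (2.029), or 4T1 DAC replicate 1 (2.038), 2 (2.018) or 3 (1.983). Of the other values for the 6 genes and the counts of called genes, 922 kept direction and side of the threshold or stayed within 1.5 times.

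Same-numbered libraries did not deviate together (correlations between -0.168 and 0.0573), and differently numbered ones had correlations between -0.0849 and 0.172. With 3 libraries in a group, these values cannot tell whether the numbers pair the samples. With a replicate block the log2 fold change of Tmem173 was 0.4718 in B16F10 and -0.388 in 4T1, and no call of the 6 genes changed. Depth limits Aim2, Ifi204 and Zbp1 in B16F10.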
